A study of Mus musculus with 719 samples.

Results

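Of the 92 single cells collected at P10 from Pcdh9-Cre retina and labelled as ON direction-selective ganglion cells, 40 held RNA of C1qb, a subunit gene of the complement protein C1q that microglia express, and 52 did not. A cell counted as holding C1qb where the deposited value corresponded to at least 0.5 sequenced fragments of the gene. The series has 719 cells in all. The cells were thus chosen by the measured value of C1qb. Because C1qb itself split the cells, its level, and the level of any gene expressed in the same cells as C1qb, describes the split and carries no test. Each library is 1 cell and the labels name no animal, so the 92 cells stand as 1 sample, all values below are descriptions, and no p-value is given.

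Microglia are the resident macrophages of the retina. They survey the tissue with motile processes, clear dying neurons and prune synapses during postnatal development, and C1q together with phagocytic receptors takes part in that work. In tissue at rest they express a set of genes that includes P2ry12, Cx3cr1 and Tmem119. Microglia of the growing or diseased nervous system express more Apoe, Spp1, Gpnmb, Lpl, Clec7a and Itgax. Stimulated microglia release chemokines such as those encoded by Ccl3 and Ccl4. Ganglion cells are the output neurons of the retina and are known by RNA-binding protein RBPMS, the vesicular glutamate transporter encoded by Slc17a6, BRN3 transcription factors and neurofilaments.

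The labels give the Pcdh9-Cre cells as mouse ON direction-selective ganglion cells of unknown preferred direction, with Cre driven by Pcdh9, and they state no reporter for this line. The remaining groups are 390 Spig1-GFP cells, labelled ON direction-selective and preferring upward or downward motion (P4, P5, P7, P8, P10 and P12), and 237 HB9-GFP cells, labelled ON-OFF direction-selective and preferring downward motion (P4, P5, P8, P10, P12 and P14). The labels' protocols describe the same dissociation and sort for all groups. Cells carrying fluorescent cholera toxin B were taken. Cells stained for CD11b, the surface protein by which microglia were to be kept out, were not. Whether a fluorescent reporter also entered the sort of the Pcdh9-Cre cells is not stated, so equal selection across lines is not established. The 92 Pcdh9-Cre cells held between 197243 and 1641574 estimated fragments assigned to genes (median 653110), against medians of 812737 to 1044295 in the other 18 groups. The most similar pair of the 92 libraries correlated at r = 0.698 across genes, and 0 pairs were identical.

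C1qb was detected in 43.5% of the Pcdh9-Cre cells (exact Clopper-Pearson 95% interval 33.2 to 54.2%, counting error only). Its level spanned 3 ranges. In 15 cells it reached at least 1000 CPM (a gene's fragments divided by all fragments assigned to genes in that cell, times 1000000), in 8 cells it lay between 100 and 1000 CPM, and in 17 cells it was above 0 but under 100 CPM. The 23 cells at 100 CPM or more made up 25% of all (16.6 to 35.1%), and their C1qb ran from 234 CPM to 6130 CPM with a median of 2189 CPM. Just inside the detection limit stood 4 cells with 1 fragment each, at 1.23 to 5.07 CPM, and just outside it all 52 cells were listed at 0. With every cell thinned to 100000 fragments, 35 of the 92 still held C1qb.

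The share was lower in each of the other groups; the difference was not tested. C1qb was detected in 3 of 390 Spig1-GFP cells (0.769%, exact interval 0.159 to 2.23%), and 0 of them reached 100 CPM. Summed over 22 core microglial genes, however, the highest Spig1-GFP cell, a downward one at P7, had 5304 CPM. The only cell with C1qb in that group had a sum of 2.8 CPM. Among HB9-GFP cells C1qb was detected in 20 of 237 (8.44%, 5.23 to 12.7%), of which 13 reached 100 CPM. At P10, the age of the Pcdh9-Cre cells, C1qb was found in 0 of 45 upward Spig1-GFP cells (a count of 0 allows up to 6.67%), 0 of 32 downward ones (up to 9.38%) and 3 of 49 HB9-GFP cells (6.12%). Line and collection cannot be told apart here. All 92 Pcdh9-Cre libraries carry numbers of the second of 2 number series in the deposited list of libraries. So do cells of the other lines, and within that series C1qb was detected in 2 of 196 Spig1-GFP and 13 of 117 HB9-GFP cells (11.1%). The highest share outside Pcdh9-Cre was at P14 in HB9-GFP, 8 of 45 cells (17.8%, 8 to 32.1%).

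**Figure D1:**
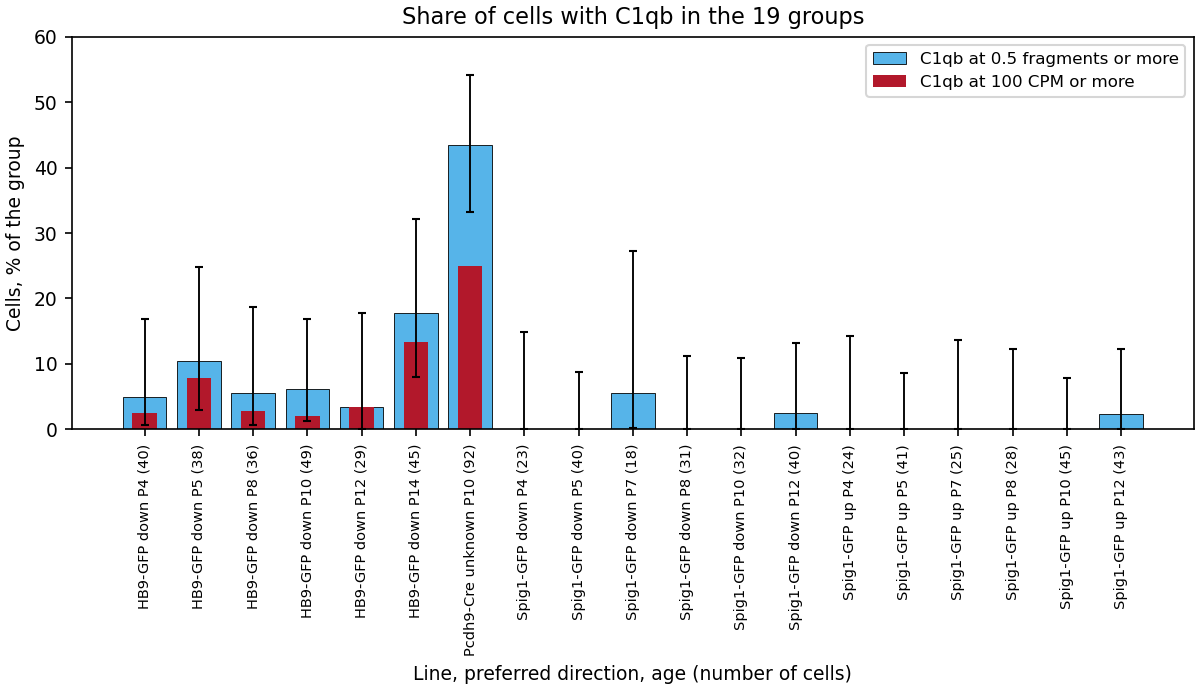
Share of cells with C1qb (y axis, percent of the group) in each of the 19 groups (x axis, with the number of cells). Blue bars are cells with at least 0.5 fragments, red bars cells at 100 CPM or more, and lines the exact 95% Clopper-Pearson interval of the blue bar; Pcdh9-Cre stands at 43.5%, HB9-GFP at P14 at 17.8%, and no Spig1-GFP group has a red bar.

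The cells with C1qb came from all 5 runs of consecutive library numbers that the Pcdh9-Cre cells occupy. What such a run stands for is not stated. From the lowest numbers to the highest, the runs held C1qb in 10 of 14, 7 of 19, 6 of 18, 11 of 23 and 6 of 18 cells, and at 100 CPM or more in 7, 4, 2, 7 and 3 cells. The part of collection or plate in these shares was not tested.

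C1q is built from 3 kinds of chain, whose genes C1qa, C1qc and C1qb lie side by side on the minus strand of chromosome 4 (GENCODE M21 on GRCm38: C1qb at 136880129-136886187, C1qc at 136889804-136893065, C1qa at 136895917-136898803). The RefSeq promoters of C1qb and C1qc (GRCm38.p6, minus strand, the 250 bases before the start site) are shown because the cells are split by one of them and both hold the letters AGGAAGT, a core of the sites bound by PU.1, the myeloid transcription factor encoded by Spi1. The match lies on the opposite strand in both and reads ACTTCCT, in capitals.
C1qb chr4:136886201-136886450: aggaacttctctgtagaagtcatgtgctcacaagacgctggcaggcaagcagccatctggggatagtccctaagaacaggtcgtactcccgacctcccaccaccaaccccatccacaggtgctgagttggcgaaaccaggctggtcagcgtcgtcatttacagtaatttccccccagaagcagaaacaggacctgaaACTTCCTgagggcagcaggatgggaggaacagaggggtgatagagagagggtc
C1qc chr4:136892915-136893164: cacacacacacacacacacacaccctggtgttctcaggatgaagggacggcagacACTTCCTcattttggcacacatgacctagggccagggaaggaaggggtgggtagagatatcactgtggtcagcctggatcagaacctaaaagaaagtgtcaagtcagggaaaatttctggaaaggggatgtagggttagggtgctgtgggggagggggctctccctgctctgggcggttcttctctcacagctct
In C1qb the match ends 47 bases before the RefSeq start site and in C1qc 189 bases before it. The GENCODE start of C1qc, 136893065, lies within the window shown. Part of that window is thus inside the GENCODE gene, and the distance holds for the RefSeq start only. AGGAAGT on either strand was present in 7.69% of 32851 RefSeq promoter windows of 250 bases, and in 6 of 17 windows of a list of 22 core microglial genes (5 of 16 matched genes: C1qb, C1qc, Fcrls, P2ry12 and Ptprc). A match is a description of letters, not a binding site. Spi1 RNA was found in 18 of the 23 cells at 100 CPM of C1qb or more (0 to 446 CPM, median 48.7 CPM), in 4 of the 17 cells under 100 CPM and in 1 of 52 cells without C1qb.

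The chains went together. C1qa ran from 0 to 5779 CPM (median 1483) and C1qc from 0 to 3774 CPM (median 1440) in the 23 cells at 100 CPM of C1qb or more, and 22 of the 23 held all 3 chains. Among the 52 cells without C1qb, C1qa was found in 4 (highest 14.4 CPM) and C1qc in 5 (highest 56.2 CPM). These chains thus set 22 of the 23 cells apart from the 52. The 17 cells under 100 CPM of C1qb overlapped the 52. Among the 17, C1qa ran from 0 to 215 CPM and C1qc from 0 to 204 CPM, and cells 18, 20, 52 and 91 held neither. On the length-scaled FPKM scale, on which genes can be compared with each other, the medians in the 23 cells were 2400 FPKM for C1qb, 1734 FPKM for C1qa and 1866 FPKM for C1qc. C1qb was the highest chain in 17 of the 23 cells, C1qa in 6 and C1qc in 0; C1qb was also the gene that chose the cells.

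Across the genome, the mean CPM over cells with C1qb was set against the mean over cells without, as a log2 ratio with 5 CPM added to each mean, for the 11887 genes whose average across the 92 cells was 5 CPM or higher. Past 2-fold, 988 genes were higher with C1qb (8.31% of those compared) and 362 were lower (3.05%), and the median of all genes was -0.08. All 22 core microglial genes were past 2-fold higher, with a median log2 difference of 5.76; within the 5 runs of library numbers that median lay between 3.2 and 6.4. This contrast is the one that chose the cells, and a gene near 0 without C1qb can pass the filter through the cells with C1qb alone. The counts of members that passed, here and for the lists below, describe the split and nothing is read from them. Restricted to the 23 cells at 100 CPM or more against the same 52, 1601 of 11911 genes were past 2-fold higher (13.4%) and 2069 lower (17.4%).

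Receptors and adaptors of microglia made up most of the core list. Tyrobp, the signalling adaptor of TREM2 (chromosome 7, 30413760-30417585, plus strand), was at 79.8 to 2681 CPM (median 1002) in the 23 cells, at 0 to 364 CPM (median 8.78) in the 17 cells under 100 CPM and at 0 to 28.2 CPM in the 52 cells without C1qb, where 5 held it. Its lowest value in the 23 cells lay above the highest in cells without C1qb. Trem2, a lipid-sensing receptor that triggers engulfment, was at 24.5 to 2090 CPM (median 318) in the 23 cells and in 1 of the 52 (1.57 CPM). Csf1r, the receptor on which microglial survival depends, was at 55.4 to 2760 CPM (median 666) and at most 86.4 CPM in the cells without C1qb, with a slight overlap. Cx3cr1, the fractalkine receptor, was found in 21 of the 23 cells (highest 4244 CPM, median 299), in 5 of the 17 and in 2 of the 52 (highest 3.61 CPM).

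The lysosomal protease gene Ctss (chromosome 3, 95526786-95556403, plus strand) had the largest log2 difference of all genes named by rank, 8.2. It was at 251 to 10866 CPM (median 2716) in the 23 cells, at 0 to 327 CPM (median 27.8) in the 17 and at 0 to 92.1 CPM in the 52, where 6 cells held it. C1qb itself followed at 8.03, and 13 further genes completed the 15 largest differences: Selenop (7.85), which encodes a selenium carrier, Lyz2 (7.82), the macrophage lysozyme, Spp1 (7.53), osteopontin, C1qa (7.52), C1qc (7.07), Tyrobp (6.83), Ccl4 (6.81), Cx3cr1 (6.56), the Fc receptor gene Fcgr3 (6.44), Il1b (6.4), Ly86 (6.23), the lysosomal glycoprotein gene Cd68 (6.22) and Ccl3 (6.21). Macrophages are known to express each of these genes. C1qb and Ccl4 were listed at 0 in all 52 cells without C1qb, so their differences depend on the 5 CPM added. Per length, the median in the 23 cells was 2807 FPKM for Ctss, 3754 FPKM for Tyrobp and 9339 FPKM for the lipid carrier Apoe.

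Itgam encodes the CD11b protein against which the sort selected. Its RNA was found in 21 of the 40 cells with C1qb and in 0 of the 52 without. By range it was present in 17 of the 23 cells at 100 CPM of C1qb or more (0 to 366 CPM, median 40.5 CPM) and in 4 of the 17 under 100 CPM (highest 22.2 CPM). RNA of the gated protein was thus in cells that the sort had passed. Per length, its median in the 23 cells was 9.68 FPKM, against 2400 FPKM for C1qb. In cells 63 and 72, both under 100 CPM of C1qb, Itgam exceeded C1qb (11.4 against 9.81 CPM, and 22.2 against 1.85 CPM). Protein at the surface was not measured here.

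**Figure D2:**
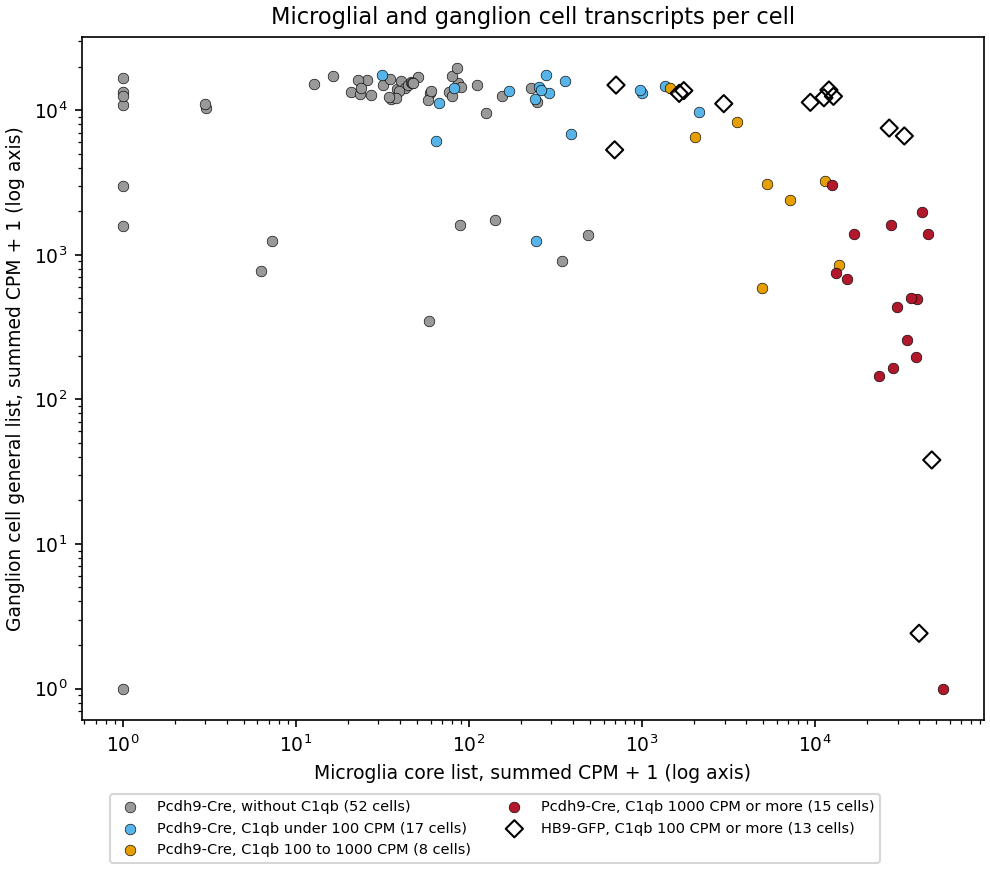
Each point is a Pcdh9-Cre cell, coloured by its range of C1qb, or an HB9-GFP cell with C1qb at 100 CPM or more (diamonds), placed by its summed CPM over 22 core microglial genes (x axis) and 20 ganglion cell genes (y axis), both on log axes after adding 1 CPM. Most Pcdh9-Cre cells with high C1qb lie at the lower right, most cells under 100 CPM lie at the top with cells that lack C1qb, and 11 of the 13 diamonds lie above 5000 CPM on the ganglion cell axis.

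Homeostatic genes were most abundant in the cells at 100 CPM of C1qb or more. With C1qb against without, 16 of 17 homeostatic genes were past 2-fold higher and 0 lower, with a median log2 difference of 4.43, beside 8.31% of all genes; the exception was the sugar transporter gene Slc2a5 at 0.5. The summed list ran from 913 to 29546 CPM (median 12713) in the 23 cells, against 210 to 2447 CPM (median 625) in the 17 and 248 to 4076 CPM (median 502) in the 42 cells that lacked C1qb and held both Rbpms and Slc17a6. The 10 cells with neither C1qb nor both of these ganglion cell genes had 201 to 2926 CPM (median 1074), so the lower end of the 23 overlaps cells without C1qb. P2ry12, a purine receptor that guides microglial processes, was found in 18 of the 23 (median 289, highest 2773 CPM), in 3 of the 17 and in 3 of the 52. Sall1, the transcription factor gene that sets microglia apart from other macrophages, was found in 17 of the 23 (highest 979 CPM) and in 2 of the 52 (highest 10.4 CPM). Tmem119 was sparse: 8 of the 23 cells held it (highest 245 CPM), 0 of the 17 and 0 of the 52.

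Genes of microglia in growing or diseased tissue were present as well. Past 2-fold, 15 of 20 were higher and 0 lower, with a median log2 difference of 2.62. Apoe was at 642 to 29043 CPM (median 6894) in all 23 cells, at 0 to 2031 CPM (median 97.3) in the 17 and at 0 to 2510 CPM (median 8.6) in the 52. Lyz2 was at 122 to 10531 CPM (median 1522) in the 23, and found in 6 of the 17 (highest 826 CPM) and 4 of the 52 (highest 52 CPM). Spp1 was uneven, found in 16 of the 23 cells at 0 to 19650 CPM around a median of 135 CPM. The remaining state genes were found in a part of the 23 only: Lpl, a lipoprotein lipase, in 16, Cst7, a cystatin, in 15, Clec7a, the beta-glucan receptor, in 13, Itgax in 10 and Gpnmb in 9. Lipid-binding Fabp5 (-0.34), Vat1 (-0.35), Ank (-0.69), Anxa5 (0.06) and Lgals1 (0.62) did not pass 2-fold; Fabp5 stood at a median of 442 CPM in the 52 cells without C1qb.

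Homeostatic and growth-associated genes were found together in some of the cells. Of the 23, 14 held P2ry12 at 100 CPM or more and 14 held Spp1 at that level, 8 held both and 3 neither. All 8 cells with Gpnmb at 100 CPM or more also had Spp1 at that level, as did 9 of 13 with Lpl and 6 of 7 with Itgax, but 3 of 8 with Cst7. Cell 64 (cells are numbered by the replicate numbers of the labels) had the highest Gpnmb, 1791 CPM, and cell 19 followed with 1531 CPM and the highest sum of the growth-associated list, 56653 CPM. Cell 8 had the highest homeostatic sum, 29546 CPM, and held no Gpnmb.

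**Figure D3:**
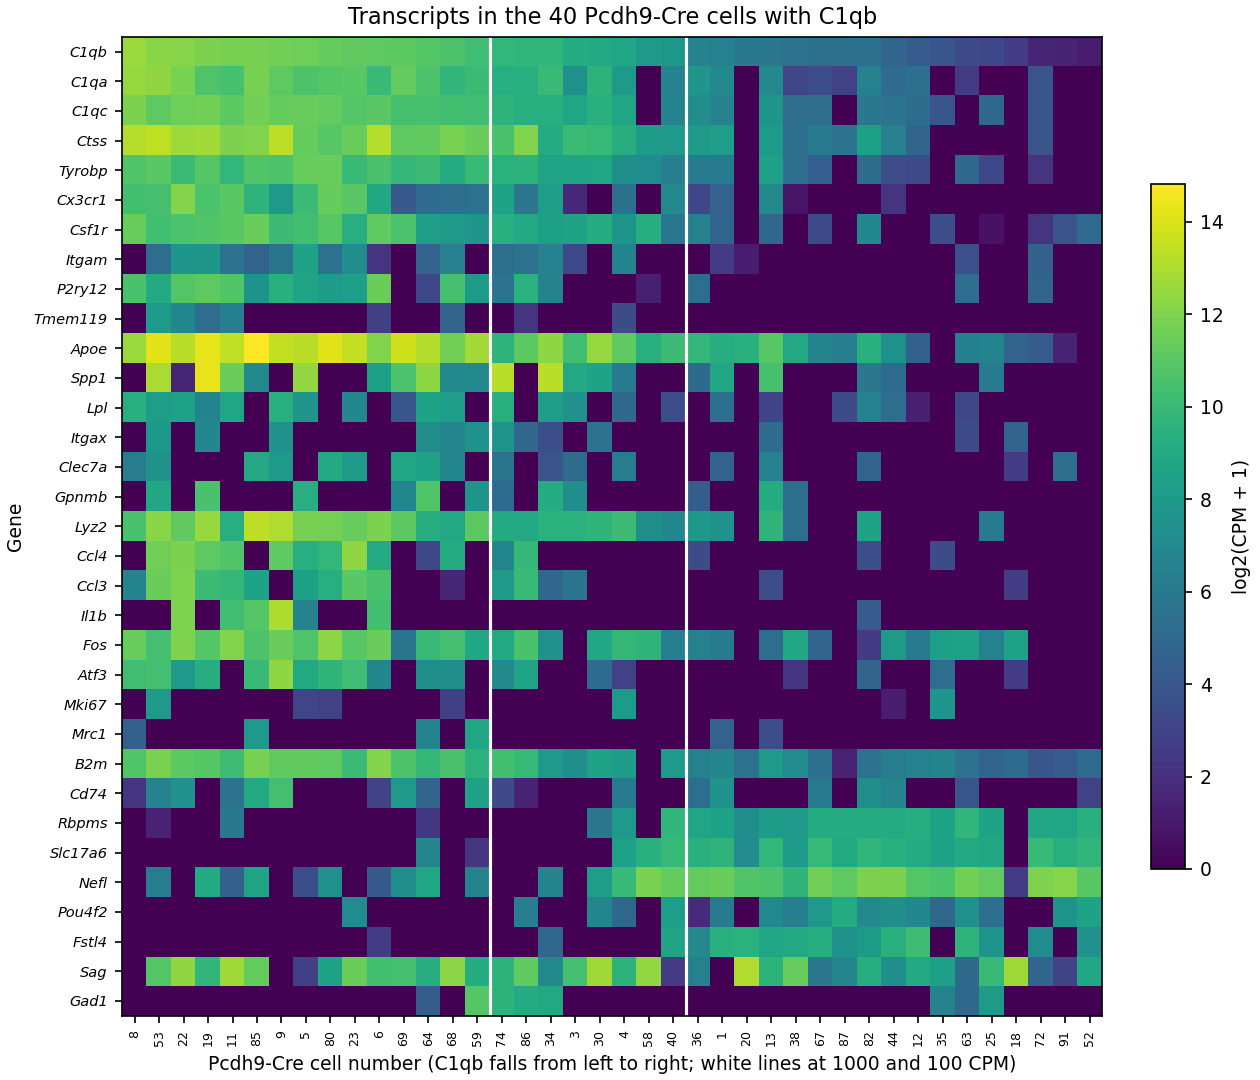
Level of microglial, ganglion cell, rod and amacrine genes (rows) in the 40 Pcdh9-Cre cells with C1qb (columns, by cell number, with C1qb falling from left to right), as log2(CPM + 1) in colour; white lines stand at 1000 and 100 CPM of C1qb. Ctss and Tyrobp fill the 23 cells left of the second line, Spp1, Gpnmb, Ccl4 and Il1b fill parts of them, and Rbpms and Slc17a6 are sparse there and present in 16 of the 17 cells on the right.

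Complement and engulfment genes followed the core list: 21 of 26 that passed the low-value filter (of 27) were past 2-fold higher and 0 lower, with a median of 3.52. The anaphylatoxin receptor gene C3ar1 was in 21 of the 23 cells (median 342, highest 2288 CPM) and in 1 of the 52 (1.95 CPM). Fcgr3 had a median of 734 CPM in the 23, and the inhibitory Fc receptor gene Fcgr2b one of 350 CPM. Sirpa, the receptor of the "do not eat me" protein CD47, reached a median of 437 CPM in the 23 against 28.2 CPM in the 52. The engulfment receptor gene Mertk was found in 12 of the 23 (highest 517 CPM), and the bridging ligand gene Pros1 in 15. C3, the complement component that C1q acts upstream of, did not pass 2-fold (0.44): it was in 6 of the 23 cells with a highest value of 361 CPM, and in 15 of the 52.

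Lysosomal genes formed the most abundant microglial list. Of 24 that passed the filter (of 25), 22 were past 2-fold higher and 0 lower, with a median of 2.71. The summed list took 3985 to 73331 CPM (median 26340) in the 23 cells, against 1426 to 3090 CPM (median 2145) in the 42 cells without C1qb and with Rbpms and Slc17a6. Over all 52 cells without C1qb the sum ran from 1238 to 4940 CPM, which overlaps the lowest of the 23. Ctsb was at 426 to 14282 CPM (median 3698) and Ctsd at 650 to 14971 CPM (median 3348) in the 23. Both cathepsins were also in 51 of the 52 cells without C1qb, at medians of 450 CPM and 268 CPM. Lamp1, a general lysosomal membrane protein gene, and Npc1, a cholesterol exporter, were the 2 that did not pass (0.97 and 0.78).

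Chemokine and inflammatory genes divided the 23 cells. Of 25 on the list 19 passed the filter and all of these were past 2-fold higher (median 3.69), an outcome that the filter sets for members such as Ccl4 and Tnf, listed at 0 in all 52 cells without C1qb; Il6, Cxcl10 and Ptgs2 were listed at 0 in all 92 cells. Ccl4 (chromosome 11, 83662584-83664683, plus strand) was in 13 of the 23 (median 110, highest 5272 CPM), in 3 of the 17 (highest 10.9 CPM) and in 0 of the 52. Ccl3 was in 15 of the 23 (highest 3949 CPM) and Il1a in 13 (highest 3353 CPM). Il1b was in fewer, 6 of the 23, with 8129 CPM in cell 9, 4053 CPM in cell 22, 1941 CPM in cell 85, 1287 CPM in cell 6, 1238 CPM in cell 11 and 96.2 CPM in cell 5. Tnf was in 7 cells (highest 691 CPM). The summed list ran from 0 CPM in cell 58 to 19538 CPM in cell 9, with a median of 2677 CPM.

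Early stress genes were high in the same cells as the chemokines. Enzymatic dissociation is known to induce genes such as Fos and Atf3 in microglia, and the retinas were dissociated with papain. Of 10 early stress genes that passed the filter (of 12), 9 were past 2-fold higher with C1qb. Fos was in 22 of the 23 (median 1347, highest 4871 CPM) against a median of 36.9 CPM in the 52, Atf3 in 16 (median 163, highest 5040 CPM) against 7 of the 52 (highest 41.4 CPM), and Zfp36 in 19 (median 518 CPM). The summed list had a median of 3657 CPM in the 23, of 109 CPM in the 42 cells with the pair and without C1qb, and of 960 CPM in the 10 cells with neither, so it was not limited to cells with C1qb. Junb was below 0.5 fragments in each of the 92 cells. All 12 cells with Ccl4 at 100 CPM or more had Fos at that level, as did 20 of the 23, and 11 of the 12 had Atf3, as did 14 of the 23. Across the 23 cells the summed early stress and chemokine lists correlated at r = 0.59 (Spearman 0.86), and the homeostatic and chemokine lists at r = 0.73 (Spearman 0.82). These are descriptions over log2 sums that share each library's total. The lists also rose with the core list. In the 15 cells at 1000 CPM of C1qb or more, median core, homeostatic and chemokine sums were 29639, 17444 and 6180 CPM. In the 8 cells at 100 to 1000 CPM they were 5135, 5134 and 209 CPM. No sum was scaled to the core sum, and the part of microglial RNA content in these correlations was not tested. The part of dissociation in the chemokine values was not tested.

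**Figure D4:**
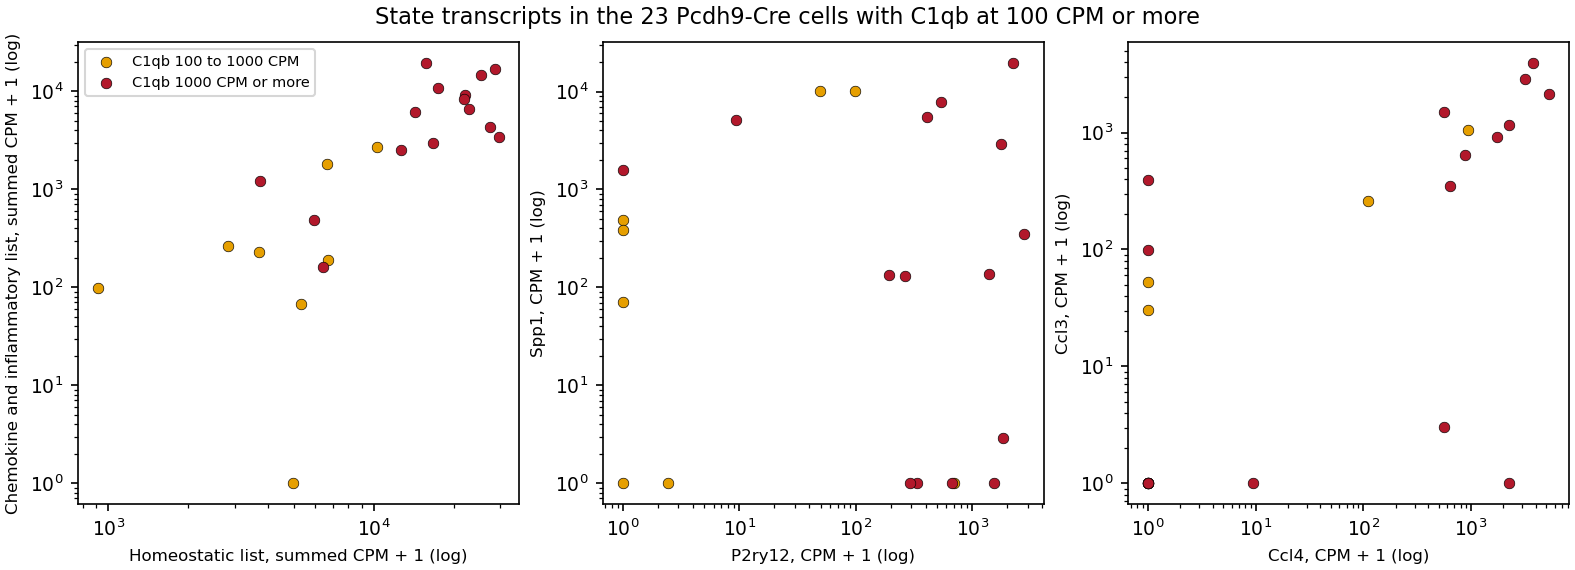
Microglial state transcripts in the 23 Pcdh9-Cre cells with C1qb at 100 CPM or more, each point 1 cell, coloured by range of C1qb, on log axes after adding 1 CPM: the summed chemokine and inflammatory list against the summed homeostatic list (left), Spp1 against P2ry12 (middle) and Ccl3 against Ccl4 (right). Chemokine sums spread from 0 to 19538 CPM and are highest in cells with high homeostatic sums. Both sums have higher medians in the upper range of C1qb and are not scaled to the core list. Spp1 occurs with and without P2ry12, and 10 of the 12 cells with Ccl4 at 100 CPM or more have Ccl3 at that level.

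Interferon response genes were low in most cells. The summed list ran from 0 to 824 CPM (median 38.6) in the 23 cells, highest in cell 5, and from 0 to 289 CPM (median 31.5) in the 52. Of 18, 3 passed the filter and 0 were past 2-fold in either direction; Isg15 was in 0 of the 40 cells with C1qb, and Ifit1 in 2. Antigen presentation genes differed by class. B2m, the light chain of class I molecules, was at a median of 1297 CPM (highest 4357) in the 23 cells and 14.2 CPM in the 52, and 6 of 8 genes that passed (of 14) were past 2-fold higher. Of the class II molecules, H2-Eb1 was in 0 of the 23, H2-Aa in 1 and H2-Ab1 in 3. Genes that serve class II loading were past 2-fold higher with C1qb: the invariant chain gene Cd74 (4.06; means of 88.5 against 0.599 CPM) was in 13 of the 23 (median 3.67, highest 1356 CPM), and H2-DMa (1.88; 53.4 against 10.9 CPM) in 11. Of myeloid transcription factors, 11 of 13 that passed (of 14) were past 2-fold higher and 0 lower. Irf8 was in 17 of the 23 (median 69.5, highest 598 CPM), against 3 of the 52. Mef2a (0.3) and Smad3 (0.6) did not pass.

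Division genes were scattered. With all 40 cells, 8 passed the filter (of 16) and 3 were past 2-fold higher: Birc5 (1.75), Ccnb2 (1.67) and Aurkb (1.76). With the 23 cells against the 52, 6 of 8 were past 2-fold higher, beside 13.4% of all genes. In that comparison 1 was lower, beside 17.4%, and the list's median was 1.31. The summed list had a median of 405 CPM in the 23 and of 578 CPM in the 52. Mki67, which marks cells outside quiescence, was in 5 of the 23 cells, at 269 CPM in cell 4 and 254 CPM in cell 53, and at 7.63 CPM or less in the others. Top2a was in 4 (highest 26.2 CPM). Stmn1, which neurons also express, had a difference of -0.97 with all 40 cells. Most of the 23 cells therefore held no RNA of the 2 markers by which dividing cells are usually counted.

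Other myeloid cells were looked for with their own markers. Of 11 border macrophage genes, 5 passed the filter and all 5 were past 2-fold higher, with a summed level of 0 to 1264 CPM (median 81.2) in the 23 cells. The defining genes were rare: Mrc1, the mannose receptor, was in 4 of the 23 (highest 427 CPM, in cell 59), Pf4 in 2, Lyve1 in 1, and Cd163 in 0. Both cells with Mrc1 at 100 CPM or more also had P2ry12 at that level. Stab1 (15 of the 23) and Folr2 (6 of the 23) carried most of the sum. None of the 12 genes of other leukocytes passed the filter; their sum was 0 to 77.9 CPM (median 0), the monocyte receptor gene Ccr2 was in 1 of the 23, and S100a9, Cd3e, Cd3g, Cd79a, Nkg7 and Cpa3 were at 0 in all 23. Red cell genes did not pass the filter either (0 of 5).

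Ganglion cell transcripts were few in most cells with high C1qb. Of 20 general ganglion cell genes, the 23 cells at 100 CPM of C1qb or more held a median of 6 (lowest 0, highest 20), the 17 cells under 100 CPM a median of 19 (5 to 20) and the 42 cells without C1qb and with both Rbpms and Slc17a6 a median of 19 (14 to 20). That last range is set in part by the requirement for 2 of the genes. The summed list was 0 to 14269 CPM (median 845), 1252 to 17529 CPM (median 13681) and 9511 to 19655 CPM (median 14095) in the same order. Median fragments were 693018, 642291 and 604452, so the 23 cells were not the shallower ones. Genes detected per cell had medians of 6554, 10047 and 9959, and of 5420, 7886 and 8144 after thinning to 100000 fragments. The 10 cells with neither C1qb nor the pair had a median of 6682 genes, close to the 23.

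Rbpms was in 6 of the 23 cells (highest 856 CPM), at 0 to 878 CPM (median 422) in the 17 and at 0 to 1086 CPM (median 503) in the 52. Slc17a6 (chromosome 7, 51622006-51671119, plus strand) was in 5 of the 23 (highest 972 CPM), at 0 to 1000 CPM (median 630) in the 17 and at 0 to 1542 CPM (median 662) in the 52. Both together were in 3 of the 23 and in 16 of the 17. For cells labelled as ganglion cells, 20 of the 23 therefore lacked at least 1 of this pair. The neurofilament gene Nefl was at 0 to 3681 CPM (median 76.3) in the 23, at 5.07 to 4403 CPM (median 2436) in the 17 and at 0 to 4649 CPM (median 2439) in the 52. Per length, its median in cells with the pair and without C1qb was 738 FPKM, against 293 for Rbpms and 157 for Slc17a6. Sncg (2608 FPKM), Stmn2 (1209 FPKM) and Gap43 (790 FPKM) stood above Nefl there. Nefl was detected in 15 of the 23, so low levels of a more abundant transcript were common where the rarer pair was missing.

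The same held along the list. Stmn2, a growth-cone protein gene, was in 16 of the 23 (median 73.4 CPM), the tubulin gene Tubb3 in 15 (median 11.1 CPM), and Sncg and the growth-associated gene Gap43 in 13 each. Against these, the BRN3 genes Pou4f1 and Pou4f2 were in 5 each, Pou4f3 in 2, Thy1 in 8, the nicotinic receptor subunit genes Chrna6 and Chrnb3 in 4 and 7, and the transcription factor gene Ebf3 in 3. Isl1, which bipolar and amacrine cells also express, was in 11 of the 23 with a highest value of 3021 CPM. With the 23 cells against the 52, 16 of 20 ganglion cell genes were past 2-fold lower and 0 higher (median -2.33), beside 17.4% of all genes. With all 40 cells, 3 were past 2-fold lower, Rbpms (-1.13), Elavl4 (-1.1) and Stmn2 (-1.0), with a median of -0.64 over the list; the 40 include the 17 cells under 100 CPM, most of which held the pair. Within the runs of library numbers the list's median lay between -1.74 and -0.01, and the run nearest 0 was the one with 2 cells at 100 CPM or more among its 6 with C1qb.

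A small number of the 23 cells, at the lower end of their C1qb levels, carried many ganglion cell transcripts. Cell 40 held 16 core microglial genes with a sum of 1446 CPM and 19 ganglion cell genes with a sum of 14269 CPM, and its C1qb, 234 CPM, was the lowest of the 23. Cell 4 held 20 of both lists (3522 and 8286 CPM; C1qb 421 CPM), and cell 58 held 9 core genes and 12 ganglion cell genes (2014 and 6492 CPM; C1qb 255 CPM), with Slc17a6 at 691 CPM and no Rbpms. In cell 58 the rod list summed to 22796 CPM, and neither C1qa nor C1qc was found. Cells 40, 4 and 58 were the 3 cells with ganglion cell sums of 5000 CPM or more among the 23, and all had C1qb under 1000 CPM. Both the bound and the cells were chosen after the values were seen. Cell 64, with C1qb at 1941 CPM, held the pair at a low level (Rbpms 4.21 CPM, Slc17a6 105 CPM). At the far end, cell 8 had the highest C1qb, 6130 CPM, 54706 CPM over the core list and 0 ganglion cell genes. Cell 53, with the most C1qb fragments, 5444, held 11 ganglion cell genes with a sum of 1389 CPM. Across the 23 cells the core and ganglion cell sums correlated at r = -0.66 (Spearman -0.68) on the log2 scale; both are shares of 1 library total.

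Genes listed for ON direction-selective cells were low in the same cells. With the 23 cells against the 52, 12 of 16 that passed the filter were past 2-fold lower, beside 17.4% of all genes, and 1 higher (Amigo2, 1.23), beside 13.4%, with a median of -1.88. Pcdh9, the gene that drives Cre in this line and encodes a protocadherin, was in 11 of the 23 (highest 954 CPM, median 0 CPM), in 16 of the 17 (median 673 CPM) and in 50 of the 52 (median 582 CPM). Fstl4, the gene also called Spig1, was in 3 of the 23 (highest 411 CPM), in 14 of the 17 (median 269 CPM) and in 40 of the 52 (median 223 CPM). Igf1 differed in its pattern: it was detected in 21 of the 23 cells (median 134, highest 2070 CPM), in 15 of the 17 (median 1164 CPM) and in 40 of the 52 (median 938 CPM), and microglia express it too. In 12 of the 23 cells the RNA of the driver gene itself was not detected.

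**Figure D5:**
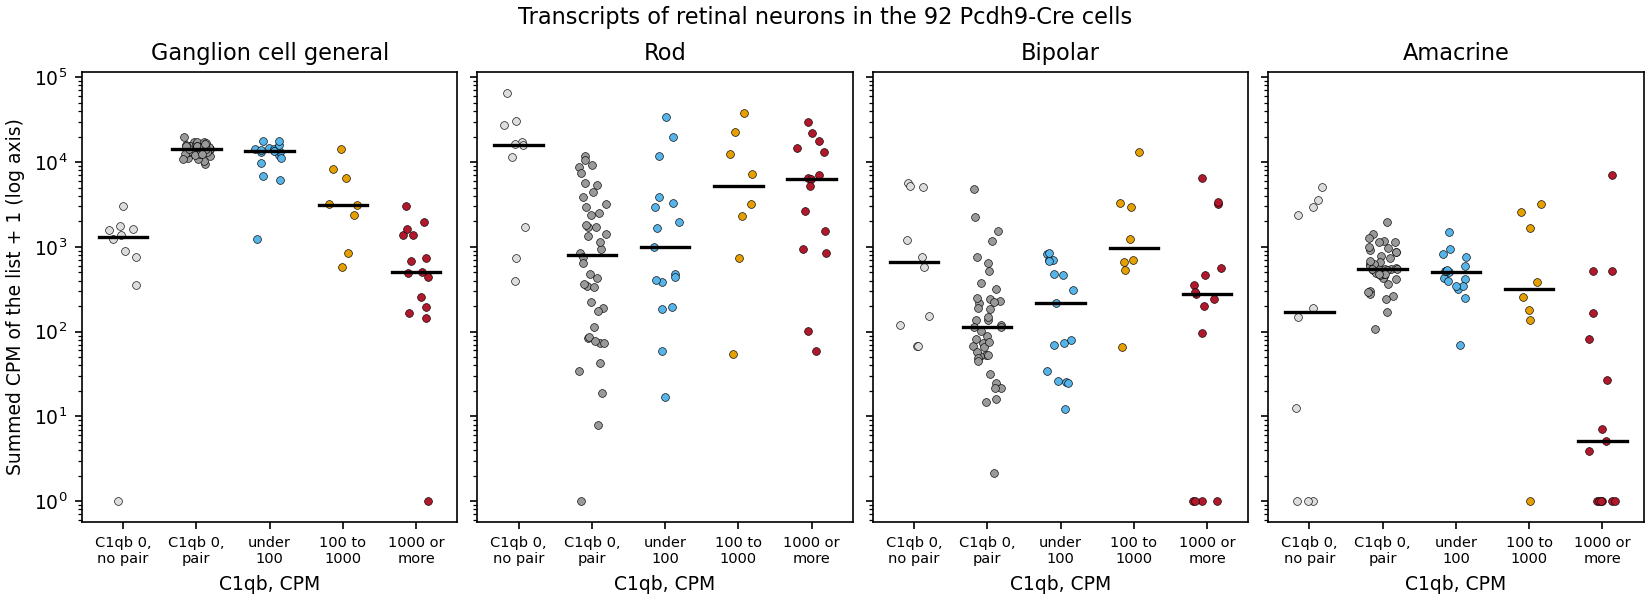
Summed CPM of the ganglion cell, rod, bipolar and amacrine gene lists (y axis, log, after adding 1 CPM) in the 92 Pcdh9-Cre cells by range of C1qb (x axis), each point 1 cell and each line a median; cells without C1qb are divided by whether they hold both Rbpms and Slc17a6 (pair) or not. Ganglion cell sums are at 9511 CPM or above in the 42 cells with the pair and without C1qb and lower in most of the 23 cells at 100 CPM or more, while rod sums reach 37527 CPM in the 23 cells and 11674 CPM in the 42.

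Transcripts of other retinal neurons were present beside the microglial ones. The summed rod list ran from 54.1 to 37527 CPM (median 6231) in the 23 cells, from 15.9 to 34436 CPM (median 985) in the 17 and from 0 to 11674 CPM (median 809) in the 42 cells with the pair and without C1qb. Sag, the rod arrestin gene, was in 21 of the 23 (median 1315, highest 6724 CPM) and in 47 of the 52 (median 254, highest 15468 CPM), so the groups overlap throughout. Of 12 rod genes, 0 were past 2-fold either way over all 40 cells and 3 were higher in the 23 (Pde6b 1.36, Prph2 1.34, Cnga1 1.07). Rod and core sums did not track each other in the 23 cells (r = 0.02, Spearman -0.04). Cell 30 had the highest rod sum of the 23, 37527 CPM, while cell 8 had 102 CPM and cell 9 57.7 CPM.

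Bipolar and amacrine transcripts were uneven: 7 of the 23 cells had bipolar sums of 1000 CPM or more, and 4 had amacrine sums at that level. Over the 23 cells the bipolar list summed to 0 to 13106 CPM (median 466). Cell 3 stood highest at 13106 CPM and cell 68 next at 6410 CPM. In the 23 against the 52, 8 of 10 bipolar genes were past 2-fold higher, beside 13.4% of all genes. Among them was Trpm1 (2.17), the ON bipolar channel, detected in 9 of the 23. Of the 52, 10 lacked the pair of Rbpms and Slc17a6. These 10 had bipolar sums of 66.5 to 5653 CPM (median 670), a median above that of the 23. The amacrine list was highest in cells 59 (7020 CPM), 74 (3186 CPM), 34 (2596 CPM) and 86 (1661 CPM). The same 4 cells held Gad1, which encodes the GABA-synthesising enzyme, at 1921, 756, 561 and 508 CPM (cells 59, 74, 86 and 34), and 0 of the other 19 reached 100 CPM. Cell 64 had the highest sum of a 5-gene horizontal cell list in any Pcdh9-Cre cell, 6129 CPM, and each of the 5 genes had its highest value of the 23 in this cell, among them Lhx1 at 329 CPM, a gene of horizontal cells, and the more widely expressed Tpm3 at 3225 CPM.

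Photoreceptor and interneuron RNA also marked cells without C1qb. The 10 cells that lacked both C1qb and the pair of ganglion cell genes had rod sums of 394 to 65818 CPM (median 16081). They held a median of 5.5 ganglion cell genes (0 to 15). Bipolar sums reached 1000 CPM in 4 of them, and amacrine sums in 4. Cell 49 among them had 65818 CPM over the rod list and 0 ganglion cell genes. These cells held 0 to 7 core microglial genes with a sum of 0 to 487 CPM (median 32.1). Cells without the pair were thus found on both sides of the split, 21 of 40 with C1qb and 10 of 52 without. Of 10 Müller glia and astrocyte genes that passed the filter (of 12), 1 was past 2-fold higher (Glul, 1.4) and 1 lower (Kcnj10, -1.2). Glul was in 21 of the 23 cells at up to 445 CPM. Of 10 endothelial genes 3 passed the filter and 0 were past 2-fold; Cldn5 was in 1 of the 40 cells.

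Most of the 17 cells under 100 CPM of C1qb had a ganglion cell profile with some core microglial RNA. In 16 of them Rbpms and Slc17a6 were both present, 15 held at least 14 of the 20 ganglion cell genes and 16 had ganglion cell sums of at least 5000 CPM. Core sums of the 16 with the pair ran from 30.5 to 2148 CPM (median 268). Those of the 42 comparable cells without C1qb ran lower, from 0 to 247 CPM (median 39), with overlap. C1qb is on the core list and is 0 in the 42 by the split, so part of the difference was set in advance. They held 2 to 18 core genes (median 11), against 0 to 13 (median 2). Set against those 42 cells, the 16 with the pair had 173 of 11082 genes past 2-fold higher (1.56%) and 168 lower (1.52%). Of the core genes 8 passed the filter, C1qb among them and others through the cells with C1qb alone, so their number and direction were set by the choice of cells. Their differences included Ctss (3.5), C1qc (3.27), Tyrobp (3.1), C1qa (3.05), C1qb (3.03), Laptm5 (2.36) and Csf1r (1.43). Of the ganglion cell genes 0 of 20 were past 2-fold, with a median of -0.09 beside -0.04 for all genes.

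The microglial genes seen in these cells were mostly abundant ones in the high-C1qb cells. Lyz2 (4.04), Selenop (4.02), Spp1 (3.76) and Apoe (3.66) had the largest differences of those named. Apoe was in 15 of the 17 cells (median 97.3, highest 2031 CPM), and in 35 of the 52 cells without C1qb at a median of 8.6 CPM. Rarer genes were mostly missing: P2ry12 was in 3 of the 17, Itgam in 4, Ccl4 in 3 (highest 10.9 CPM) and Atf3 in 4, and 0 of the 2 chemokine and inflammatory genes that passed were past 2-fold. Cell 13 was the fullest of the 17, with 18 core genes, 2148 CPM over the core list and Spp1 at 1433 CPM beside 9686 CPM over the ganglion cell list; its C1qb was 60.6 CPM. Cell 20 was the opposite, with C1qb at 62.2 CPM, 2 core genes in all and a rod sum of 34436 CPM. Cell 35 held pericyte genes, 2796 CPM over an 8-gene list with Rgs5 at 1396 CPM, and by itself put 3 pericyte genes past 2-fold in this comparison.

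Among cells without C1qb, microglial RNA was low but not nil. Ctss was in 6 of the 52, Tyrobp in 5 and C1qc in 5. Cell 88 held 13 core genes with a sum of 226 CPM, Apoe at 256 CPM and no C1qb. The split at C1qb thus leaves some cells with RNA of other core genes on the side without it.

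Signals between neurons and microglia fell on both sides. Cx3cl1, the neuronal ligand of CX3CR1, was in 9 of the 23 (highest 120 CPM), at a median of 205 CPM in the 17 and of 145 CPM in the 52. Cd200, the neuronal ligand of CD200R, had medians of 0, 181 and 138 CPM in that order, and its receptor gene Cd200r1 was in 3 of the 23, 1 of the 17 and 0 of the 52. Cd47 did not separate the cells (0.02; medians of 88.3, 173 and 177 CPM). Il34, a ligand of CSF1R, did not pass the filter and was in 7 of the 40 cells with C1qb.

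The 15 genes with the most negative differences over all 40 cells had low means on both sides. They began with Pomc (-2.76; means of 1.54 against 39.3 CPM), where 1 cell at 1934 CPM made most of the mean, and Cdh8 (-2.59; 3.83 against 48.1 CPM), a cadherin gene in 9 of 40 and 27 of 52 cells. Gnat2 (-2.31), the cone transducin gene, was in 4 of 40 and 5 of 52 cells, with 2120 CPM as its highest value. Rab27b (-1.76), a vesicle-trafficking GTPase gene, was in 19 of 40 and 38 of 52, and Magee2 (-1.76) in 7 of 40 and 25 of 52. The orexigenic peptide receptor gene Qrfpr (-1.87) was in 2 of 40 and 13 of 52. Adnp (-2.26), Pex11g (-2.12), Gm36952 (-2.1), Gm19409 (-2.07), Bbs12 (-2.06), D030047H15Rik (-1.9) and 2610037D02Rik (-1.72) completed the list together with the clustered protocadherin genes Pcdhga6 (-2.26) and Pcdha6 (-1.83), which share exons with their neighbours, so that their values are uncertain.

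The 13 HB9-GFP cells with C1qb at 100 CPM or more also held microglial genes. They had 7 to 22 core genes (median 19), a core sum of 694 to 47272 CPM (median 11254), and a homeostatic sum of 793 to 29303 CPM (median 7228). In contrast to the 23 Pcdh9-Cre cells, 11 of the 13 held at least 14 of the 20 ganglion cell genes, against 2 of the 23, and 11 of 13 held Rbpms with Slc17a6, against 3 of 23. Examples are a P4 cell with 22 core genes and 16 ganglion cell genes (26834 and 7524 CPM) and a P8 cell with 20 and 18 (32817 and 6636 CPM). The 2 exceptions, both at P14, had 1 ganglion cell gene each beside core sums of 39913 and 47272 CPM. Rod transcripts were lower in this set, with a median sum of 42.4 CPM (highest 4437 CPM). Spp1 was found in 2 of the 13 (highest 7552 CPM), Ccl4 in 5 (highest 1297 CPM) and Il1b in 1 (75.8 CPM), and the chemokine list summed to a median of 570 CPM. The sets were not matched for level of C1qb. At least 14 ganglion cell genes were held by 0 of the 15 Pcdh9-Cre cells at 1000 CPM or more. At 100 to 1000 CPM, 2 of 8 Pcdh9-Cre cells held that many. Line and age cannot be told apart between these sets, and 7 of the 13 libraries are in the second number series with Pcdh9-Cre. The difference was not tested, as no animal is named for either.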

How the data were processed

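Single cells were profiled with Smart-seq2 and sequenced as 75 bp paired-end reads, per the labels' protocols. The submitters' processing notes name R 3.5.1, Cuffnorm, Cufflinks 2.2.1, SAMtools 1.3.1 and HISAT2 2.1.0, and the builds mm10 and GRCm38.p6. Whether strand entered the counting is not given here. The deposited table that the authors made with Cuffnorm holds a signal per gene and cell, in which each cell's estimated fragments were divided by its size factor. That factor is a ratio that the authors deposited in the table of cells (0.23 to 2.33 in Pcdh9-Cre). The deposited FPKM values of the authors, which take gene length and depth into account, were an alternative and the scale for comparing genes.

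Values were multiplied by the size factor and scaled to CPM over the 53374 genes. After multiplication 96.1% of the nonzero values were whole to within 0.05, so whole reads were not recovered throughout and no count model was fitted. The gene table held 90.2 to 95.4% of the mapped fragment mass per Pcdh9-Cre cell. All cells were kept. Doublets were not called, and whether a library held RNA of more than 1 cell was not tested. Genes whose average across the cells compared was 5 CPM or higher were kept, and differences are log2 ratios of means with a pseudocount of 5 CPM, which understates the change of low genes. Without replicates of a named animal there was no test. The calculation was tested on simulated data.

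Members, 26 gene lists and comparisons were chosen with earlier results of these data known. The ranges at 100 and 1000 CPM, and the cells singled out, were chosen after values were seen. Genes were named by a rule: C1qb, Ctss, Tyrobp, Cx3cr1, Itgam, Pcdh9 and Fstl4, the 15 largest and 15 smallest differences among genes detected in at least 5 cells of the higher side, up to 6 abundant members of each list with its defining genes, and ganglion cell, direction-selective and neuronal genes; further list members named at or near 0, or below the threshold, were chosen after their values were seen. Python 3.11.15, pandas 2.3.3, NumPy 2.4.6, SciPy 1.17.1 and matplotlib 3.10.9 were used. Columns without a sample numbered 0. Some results are not reported here.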

Additional observations from a re-analysis of the deposited data

How the results depend on the processing

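The 40 cells with C1qb became 40, 36 and 35 at a minimum of 1, 3 and 10 fragments, 35 after thinning and 34 at 10 CPM. The 988 genes past 2-fold higher became 477 with a pseudocount of 20 CPM, 463 with a mean of at least 20 CPM, and 1601 with the cells at 100 CPM of C1qb or more against those without, an alternative added after seeing the data. The 362 lower genes became 742 with a pseudocount of 1 CPM, 31 with 20 CPM, 173 with a mean of at least 20 CPM, 157 in the FPKM table, 665 with the split at 10 CPM of C1qb, and 2069 with the cells at 100 CPM or more. Of the 157 in the FPKM table, 75 were among the 362, and of its 931 higher genes, 650 were among the 988. The core list's median of 5.76 became 7.27 with a pseudocount of 1 CPM, 4.08 with 20 CPM and 6.53 with the cells at 100 CPM or more; the ganglion cell list's median of -0.64 became -2.33 with the latter. Neither median changed sign under the 10 settings tried outside the runs of library numbers, some of which left cells out. Limiting the cells without C1qb to those with Rbpms and Slc17a6, also added after seeing the data, gave 1402 higher and 424 lower genes. Igf1 was at -0.49 in the reported comparison and at 0.47 in the FPKM table; the cause was not tested. The files name no sequencing run for these cells, so the planned comparison within runs was replaced by one within the 5 runs of consecutive library numbers, added after seeing the data and made for the 2 medians. From the lowest numbers to the highest, the core median was 6.39, 6.4, 3.2, 5.61 and 6.14, and the ganglion cell median -1.34, -1.74, -0.01, -0.9 and -0.38. No paired analysis was possible because each sample is 1 cell and the result comes from no test. Depth limits rare genes: a transcript listed at 0 in a cell may lie below 1 fragment.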
